A study of Homo sapiens with 6 samples.

Results

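The genes described here are the host genes of small nucleolar RNAs (snoRNAs) and a set of long noncoding RNAs that are mostly known from the nucleus, followed in MUM2B cells, which the labels give as a human melanoma line. They were chosen by name: every gene whose symbol is SNHG and a number, plus GAS5, ZFAS1, EPB41L4A-AS1, MALAT1, NEAT1, TUG1, NORAD, OIP5-AS1, KCNQ1OT1 and MEG3. That rule took 35 of the 58735 genes in the files, under 34 symbols because SNHG28 stands for 2 gene IDs. Of these, 28 are snoRNA hosts by name and 7 are the other long RNAs. The names were chosen with earlier results of these data known, so the shares of members that changed, given below, are a description only. The study compared 3 RNA-seq libraries of MUM2B cells with stable overexpression of LACTB, called LACTB below, with 3 libraries of cells stably carrying an empty vector, called EV. All 6 came from cells in RPMI medium with serum. LACTB belongs to the penicillin-binding and beta-lactamase protein family and lies between the membranes of mitochondria. The labels name neither the vector nor its promoter, and do not say whether the cells were a pool or 1 clone, nor whether replicates were separate cultures, so p-values measure the spread between these libraries, which may be technical.

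Most snoRNAs of human cells are cut out of introns. A host gene is transcribed and spliced, the intron is trimmed to the snoRNA, and the snoRNA then guides methylation or pseudouridylation of ribosomal RNA as part of a ribonucleoprotein. Some hosts encode ribosomal or translation proteins, whereas the genes named SNHG (small nucleolar RNA host gene) mostly make a spliced RNA with no long reading frame. Many of these spliced RNAs begin with a terminal oligopyrimidine tract, a run of C and T at the first base that links the RNA to the translation machinery, and are removed by nonsense-mediated decay. The other RNAs work differently: MALAT1 gathers in nuclear speckles, NEAT1 is the scaffold of paraspeckles, and NORAD binds PUMILIO proteins, largely in the cytoplasm.

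The first bases of hosts that rose, did not pass the test or fell in LACTB cells are shown because this start is what the class is known for. RefSeq holds a window around the start (GRCh38.p14, 250 bases before to 50 after) for 28 of the member symbols. The 80 bases printed run from 40 before the start to 40 from it on, 5′ to 3′ on the strand of the gene. Capitals mark TATAA between 40 and 16 bases before the start and CTTTC or CTTTT from 10 bases before to 15 after it, both on the sense strand. The stretches are chr1:173869006-173869085 (minus strand) for GAS5, chr20:49278602-49278681 (plus) for ZFAS1, chr11:62855846-62855925 (minus) for SNHG1, chr4:118278722-118278801 (plus) for SNHG8, chr6:85678694-85678773 (minus) for SNHG5, chr1:28581834-28581913 (minus) for SNHG12 and chr16:2155319-2155398 (minus) for SNHG19.
GAS5: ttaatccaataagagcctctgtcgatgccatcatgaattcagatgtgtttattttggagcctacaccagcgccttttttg
ZFAS1: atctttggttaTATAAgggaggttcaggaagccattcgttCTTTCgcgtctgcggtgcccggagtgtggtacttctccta
SNHG1: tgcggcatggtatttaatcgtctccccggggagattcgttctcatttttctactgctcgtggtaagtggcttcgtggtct
SNHG8: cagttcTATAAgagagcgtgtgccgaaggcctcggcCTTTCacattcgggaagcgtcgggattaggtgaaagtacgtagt
SNHG5: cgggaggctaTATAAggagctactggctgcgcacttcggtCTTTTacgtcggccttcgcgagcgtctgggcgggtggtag
SNHG12: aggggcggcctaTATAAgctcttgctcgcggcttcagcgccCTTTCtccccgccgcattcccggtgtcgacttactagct
SNHG19: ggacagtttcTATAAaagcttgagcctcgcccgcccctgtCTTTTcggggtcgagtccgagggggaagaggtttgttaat

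ZFAS1, SNHG8, SNHG5, SNHG12 and SNHG19 each carry both marks, and they include hosts that rose, passed no test or fell. No other host with a window carries both, so the printed stretches are not a typical sample of the class. In the windows of all RefSeq genes CTTTC or CTTTT at this place was found in 8.3% of 27305 genes, and in 7 of 23 snoRNA hosts (30.4%). TATAA at its place was found in 4.94% of all genes and in 6 of 23 hosts (26.1%). Among the 18 tested hosts with a window, CTTTC or CTTTT was present in 2 of 7 that rose and 5 of 11 that did not rise. SNHG15 and SNHG6, which also rose, are not among them. GAS5 and SNHG1 are among the 7 that rose and count as lacking these letters. The search takes no other run of C and T, and for GAS5 it did not reach the exons counted here. TGATGNAA, searched on both strands of the whole window, was found in none of the 28 members and in 4.46% of all genes. These are matches of letters and were not tested. The RefSeq start of GAS5 used for its stretch lies upstream of the GENCODE 29 gene, so this stretch lies outside the exons counted here. The stretches of ZFAS1, SNHG8 and SNHG12 lie wholly inside the GENCODE 29 gene, which starts further upstream.

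The libraries held 16978799 to 17821609 reads in genes in the LACTB group and 17828472 to 18395631 in the EV group. LACTB itself stood at 174, 169 and 161 FPKM in the LACTB libraries, against 3.81, 3.39 and 4.71 FPKM in the EV libraries, so every library matched its label. FPKM is a read level scaled by exon length and library size, so levels below are per length. The deposited values imply a library size of 0.983, 0.986 and 1.011 times the reads in genes in EV replicates 1 to 3. In LACTB replicates 1 to 3 the implied size was 1.016, 1.013 and 1.019 times these reads. Of 12 melanocyte and melanoma markers 11 averaged under 1 FPKM, with OCA2 and S100B at 0 in all libraries, so the labelled cell type rests on the labels. Their summed level was 6.46 to 7.16 FPKM in LACTB libraries and 7.31 to 7.76 in EV libraries. Fibroblast (6) and leukocyte (5) markers all averaged under 1 FPKM. Of 7 endothelial markers, TIE1 and CDH5 were expressed, with a list sum of 48.4 to 52.3 FPKM in LACTB and 82.6 to 89.5 FPKM in EV libraries. Of 5 epithelial markers KRT8 and KRT18 were expressed, with list sums of 304 to 311 FPKM and 340 to 352 FPKM in LACTB and EV libraries. Mitochondrially encoded genes took 4.65% to 5.04% of reads in LACTB libraries, against 5.54%, 5.62% and 3.61% in EV replicates 1, 2 and 3. Scaled without mitochondrially encoded genes, 12 members rose and 3 fell, the same numbers as in the main fit below. With voom, which scaled by the total reads in genes, 13 rose and 2 fell. Beyond such changes of scaling, the part of these differences in the results below was not tested. In a bulk library, a change in all cells and a change in a share of the cells cannot be told apart.

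GAS5, ZFAS1 and MALAT1 had the largest rises among the members in LACTB cells against EV cells on the log2(FPKM + 1) scale. Of 25 members with a mean of at least 1 FPKM, 12 rose, 3 fell and 10 passed no threshold (limma on log2(FPKM + 1) over all 11875 tested genes, Benjamini-Hochberg adjusted p under 0.05). Over all tested genes 14.8% rose and 17.2% fell, and among the other 755 tested long noncoding genes 10.3% rose and 11.1% fell. The median log2 fold change of the tested members was 0.20, from -0.39 (SNHG20) to 0.73 (GAS5), against -0.01 over all tested genes. All 3 LACTB libraries lay above all 3 EV libraries in 14 members and below them in 4, against 22.3% and 25.1% of all tested genes. All 25 had a mean of at least 1 FPKM in both groups, so none passed the filter through one group alone. Summed over the 35 members, reads made up 0.267%, 0.257% and 0.258% of all reads in genes in the LACTB libraries, against 0.204%, 0.206% and 0.218% in the EV libraries.

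**Figure D1:**
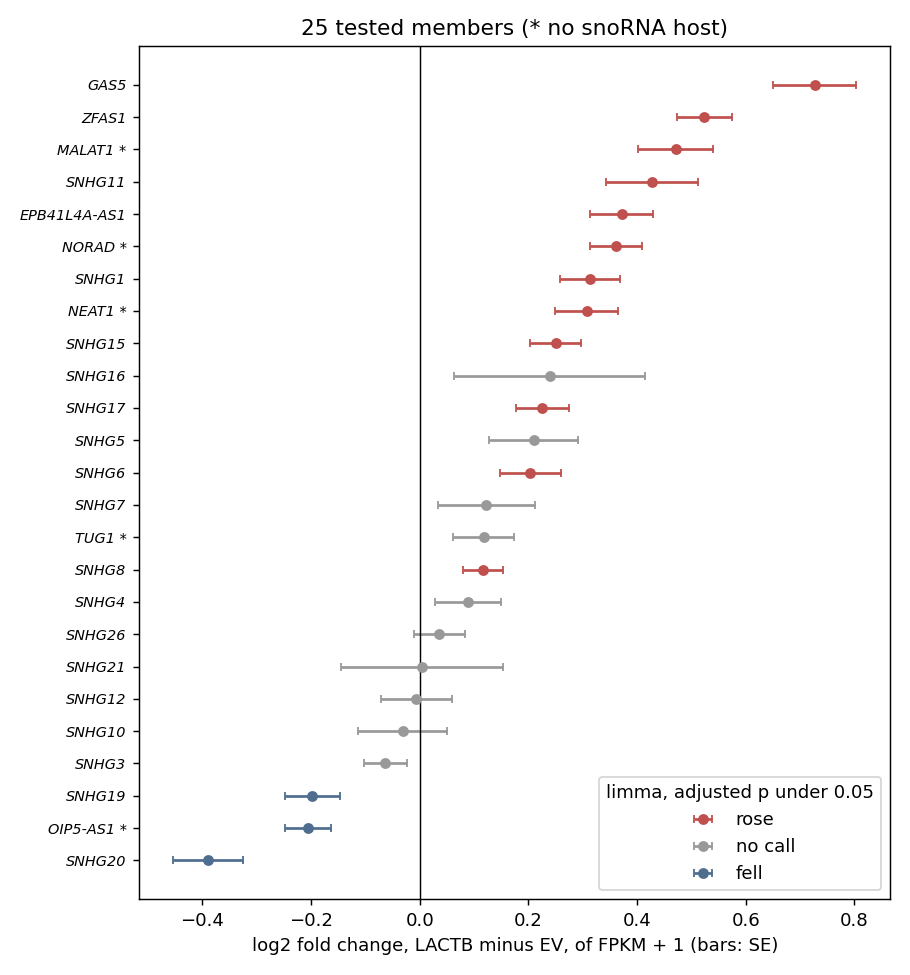
Log2 fold change of FPKM + 1, LACTB minus EV, for the 25 tested members (points) with its standard error (bars), ordered by size and coloured by call; an asterisk marks members that are not snoRNA hosts. Points run from -0.39 for SNHG20 to 0.73 for GAS5, with 12 members called as higher in LACTB and 3 as lower.

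GAS5 (ENSG00000234741; chromosome 1, 173863900 to 173868882, minus strand, GENCODE 29 on GRCh38), a growth-arrest transcript whose introns are known to hold C/D box snoRNAs, changed most among the members. It stood at 67.1, 69.2 and 67.2 FPKM in the LACTB libraries, against 39.5, 36.9 and 46.0 FPKM in the EV libraries. The lowest LACTB library was far above the highest EV library, and the LACTB libraries were close together. The group means were 67.9 ± 1.17 FPKM in LACTB and 40.8 ± 4.68 FPKM in EV (SD, n = 3 each), a ratio of 1.66 and a difference of 0.73 in log2(FPKM + 1), called the log2 fold change below (SE 0.077; limma, adjusted p = 0.000712). It drew 4324 to 4414 reads per LACTB library and 2432 to 3009 per EV library. GENCODE 29 places no snoRNA gene inside it.

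ZFAS1 (chromosome 20, 49278178 to 49295738, plus strand), the host of 3 SNORD12 genes that starts beside ZNFX1, had the smallest p among the members. It stood at 26.1, 26.5 and 24.6 FPKM in LACTB, against 17.0, 17.2 and 18.6 FPKM in EV. The ratio of means was 1.46, a difference of 0.52 in log2(FPKM + 1) (SE 0.051; limma, adjusted p = 0.00048). Its annotated exons share 249 bases with ZNFX1 on the opposite strand, 11.1% of its exon length, and ZNFX1 itself stood at 14.3 ± 0.0607 FPKM in LACTB and 12.4 ± 0.0853 FPKM in EV (limma, adjusted p = 0.00635).

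EPB41L4A-AS1 (chromosome 5), the host of the H/ACA snoRNA SNORA13, stood at 6.85, 6.97 and 7.28 FPKM in LACTB, against 5.08, 4.91 and 5.66 FPKM in EV. The groups did not overlap and were 0.37 apart on the log2 scale (SE 0.058; limma, adjusted p = 0.00369). Of its exon length 49.6% lies opposite EPB41L4A, which had 0.939 ± 0.135 FPKM in LACTB and 1.13 ± 0.123 FPKM in EV and passed no threshold. SNHG1 (chromosome 11), host of 7 snoRNA genes in the annotation used, among them SNORD22 and SNORD25, stood at 46.7, 42.5 and 43.6 FPKM in LACTB, against 34.2, 34.4 and 37.8 FPKM in EV. It was 1.249 times as high in LACTB, or 0.31 higher on the log2 scale (SE 0.056; limma, adjusted p = 0.00627). Here, too, every LACTB library exceeded every EV library.

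Lower expressed hosts rose as well. SNHG11 stood at 3.20, 2.71 and 2.65 FPKM in LACTB, against 1.64, 1.998 and 1.95 FPKM in EV, from 81 to 163 reads per library. Its ratio of means, 1.53, was above that of ZFAS1, while on the log2(FPKM + 1) scale it gained 0.43 (SE 0.085; limma, adjusted p = 0.00941), since that scale understates changes of low genes. SNHG11 and SNHG17 lie near each other on chromosome 20, on opposite strands, and host SNORA60 and SNORA71 genes. SNHG17 stood at 7.82, 7.96 and 8.63 FPKM in LACTB, against 6.82, 6.77 and 6.84 FPKM in EV (log2 fold change 0.23, SE 0.048; limma, adjusted p = 0.0125). SNHG15, the host of SNORA9, stood at 12.7, 14.0 and 13.5 FPKM in LACTB, against 11.4, 10.9 and 11.1 FPKM in EV (log2 fold change 0.25, SE 0.047; limma, adjusted p = 0.00753). In all 3 genes the groups were apart.

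For SNHG6 and SNHG8, 2 of the more abundant hosts, the calls were less secure. SNHG6, the host of SNORD87, stood at 65.4, 62.9 and 65.005 FPKM in LACTB, against 59.9, 52.0 and 55.9 FPKM in EV (log2 fold change 0.20, SE 0.056; limma, adjusted p = 0.031). It was called under 9 of 17 alternatives, with adjusted p from 0.00601 to 0.0897, and leaving out EV replicate 2 or 3 or any LACTB library ended the call (adjusted p 0.0745, 0.0579, 0.0821, 0.0707 and 0.0897 in that order, LACTB replicates by number). SNHG8, the host of SNORA24, stood at 39.97, 38.8 and 40.3 FPKM in LACTB, against 36.0, 36.2 and 37.3 FPKM in EV (log2 fold change 0.12, SE 0.037; limma, adjusted p = 0.0491). Its groups were apart by a small gap, and it was called under 5 of 17 alternatives, with adjusted p from 0.0172 to 0.157. Among single libraries, leaving out EV replicate 3 alone kept the call of SNHG8; without the others adjusted p was 0.137 and 0.124 (EV replicates 1 and 2) and 0.106, 0.0962 and 0.14 (LACTB replicates 1 to 3).

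**Figure D2:**
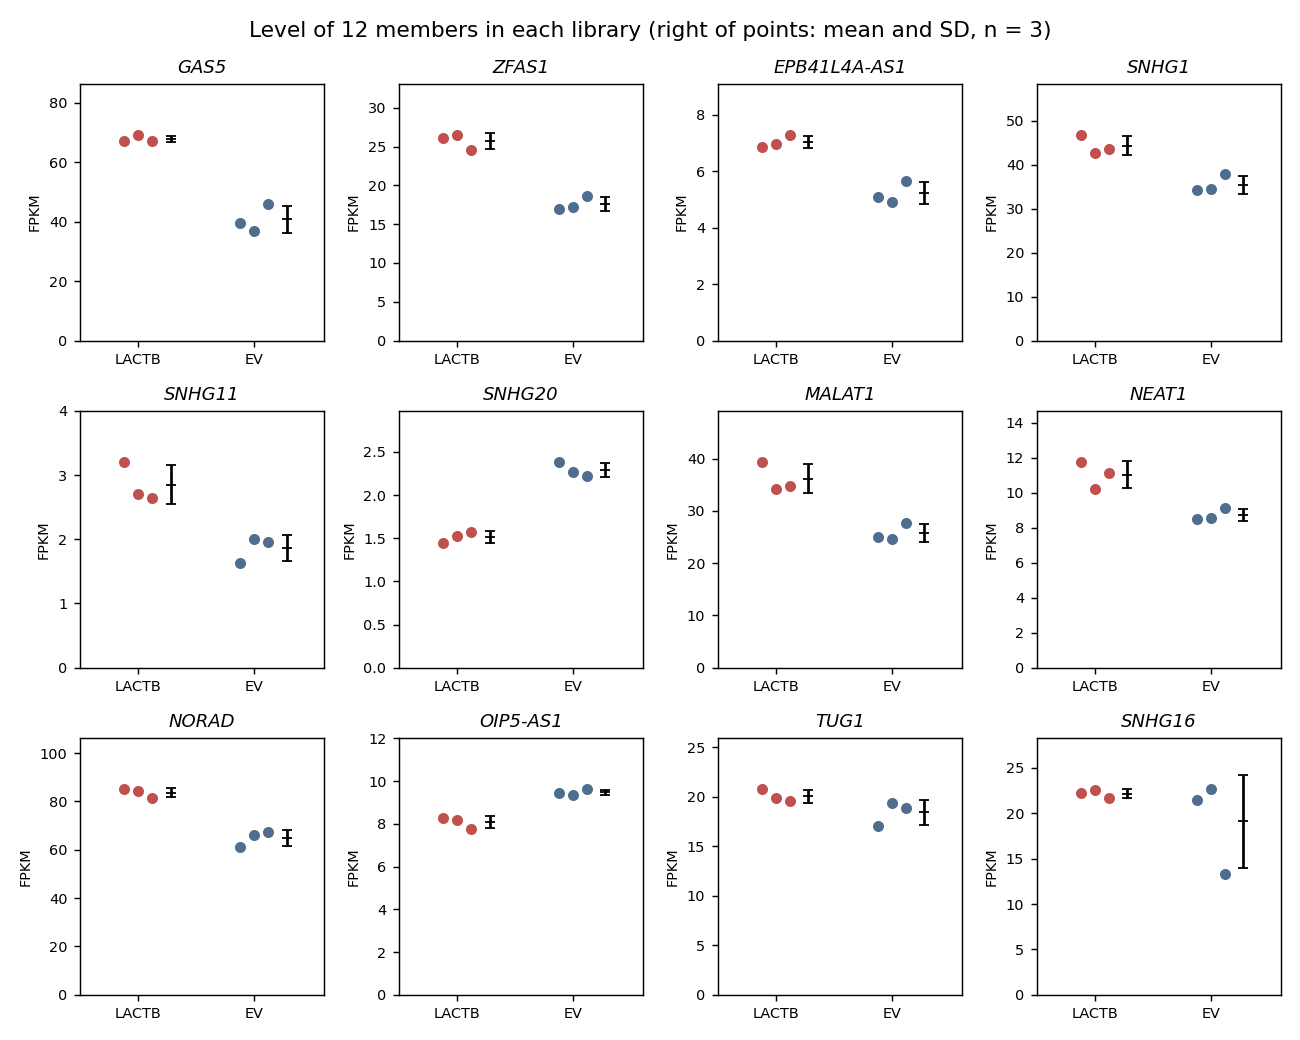
FPKM in each library for 12 members, with LACTB libraries in red and EV libraries in blue (replicates 1 to 3 from left to right) and the mean and SD of each group in black; axes start at 0. GAS5, ZFAS1, EPB41L4A-AS1, SNHG1, SNHG11, MALAT1, NEAT1 and NORAD are higher in every LACTB library, SNHG20 and OIP5-AS1 are lower in every one, and EV replicate 3 stands apart in SNHG16 at 13.3 FPKM.

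SNHG20 and SNHG19 went the other way. SNHG20 (chromosome 17, 77086716 to 77099902, plus strand), the host of SCARNA16, stood at 1.44, 1.53 and 1.57 FPKM in LACTB, against 2.38, 2.27 and 2.22 FPKM in EV. It was 1.51 times as high in EV (log2 fold change -0.39, SE 0.064; limma, adjusted p = 0.00441), from 159 to 255 reads per library. SNHG20 shares 460 exon bases, 7.6% of its length, on the same strand with SEC14L1, which fell as well, to 27.0 ± 0.368 FPKM in LACTB, against 46.3 ± 1.79 FPKM in EV (log2 fold change -0.76; limma, adjusted p = 3.96e-05). The part of SEC14L1 reads in the value of SNHG20 was not tested.

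SNHG19, a short host of 342 exon bases that holds SNORD60, stood at 22.8, 23.5 and 23.1 FPKM in LACTB, against 27.8, 24.8 and 27.4 FPKM in EV (log2 fold change -0.20, SE 0.051; limma, adjusted p = 0.0242). That rests on 138 to 142 reads per LACTB library and 154 to 169 per EV library. It kept its call under 7 of 17 alternatives, with adjusted p from 0.0113 to 0.286. Without EV replicate 1 or 3 adjusted p was 0.0763 and 0.0583, and without LACTB replicates 1 to 3 it was 0.0664, 0.0664 and 0.0683.

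The other 9 tested hosts passed no threshold. SNHG5, the host of SNORD50B, stood at 11.8, 11.8 and 13.4 FPKM in LACTB, against 10.4, 9.49 and 11.7 FPKM in EV (log2 fold change 0.21; limma, adjusted p = 0.0922). It was called under 2 of 17 alternatives, with adjusted p from 0.0264 to 0.241, among them the fit without EV replicate 3 (adjusted p = 0.0329). SNHG3 (28.8 ± 0.0531 FPKM in LACTB and 30.2 ± 1.07 FPKM in EV), SNHG12 (7.09 ± 0.286 and 7.13 ± 0.63 FPKM) and SNHG26 (13.6 ± 0.708 and 13.3 ± 0.135 FPKM) had ratios of means of 0.955, 0.993 and 1.03. SNHG4, SNHG7, SNHG10 and SNHG21 had log2 fold changes of 0.09, 0.12, -0.03 and 0.00, with limma's adjusted p of 0.308, 0.339, 0.799 and 0.989. SNHG3 shares 242 exon bases with RCC1, which fell 1.27-fold (34.0 ± 2.02 FPKM in LACTB and 43.1 ± 2.44 FPKM in EV), and SNHG10 shares 391 with GLRX5 on the opposite strand, which also fell (13.0 ± 0.819 and 17.7 ± 1.27 FPKM).

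SNHG16 stood apart from the other members because of 1 library. It had 22.2, 22.6 and 21.7 FPKM in LACTB and 21.4, 22.6 and 13.3 FPKM in EV replicates 1, 2 and 3, with 1283 reads in EV replicate 3 and 2020 to 2202 in the other libraries. Its log2 fold change, 0.24, had a large error (SE 0.18; limma, adjusted p = 0.348), and 0.01 without EV replicate 3 (adjusted p = 0.899). EV replicate 3 differed from its group in other members too, in the opposite direction: it was the highest of the EV libraries in 14 of 25 tested members and in 9 of the 12 that rose, and the lowest in 4, against 38.2% and 35.9% of all tested genes. Without EV replicate 3, 12 members rose and 2 fell.

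**Figure D3:**
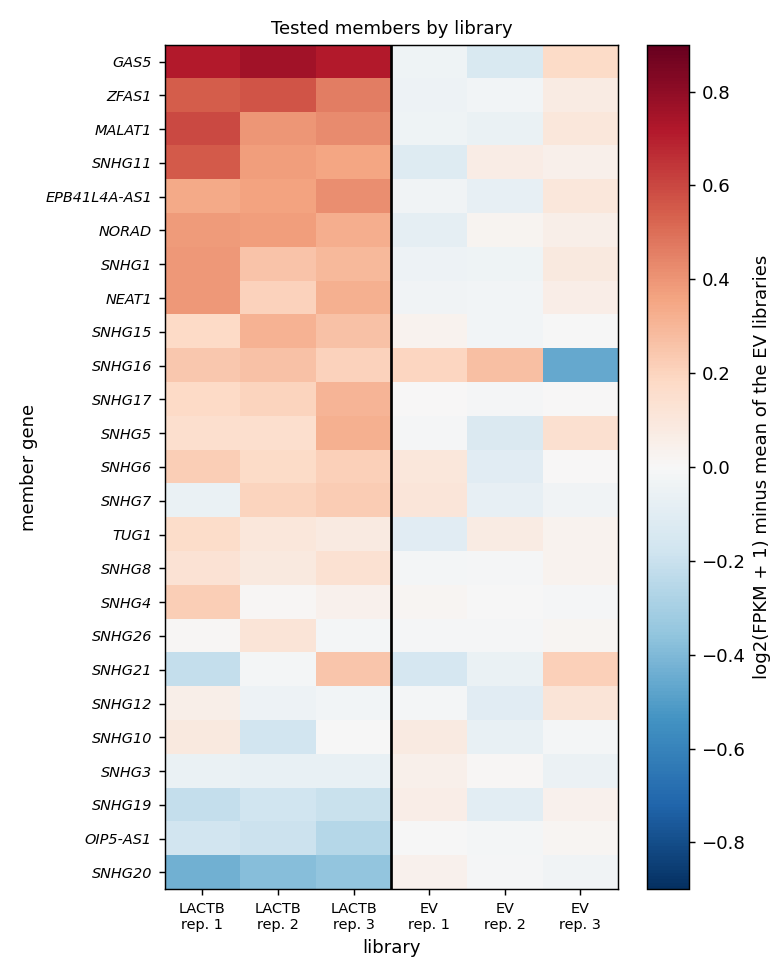
Colour map of the 25 tested members (rows) in the 6 libraries (columns), as log2(FPKM + 1) minus the mean of the EV libraries. The rows from GAS5 down to NEAT1 are red in all 3 LACTB libraries, SNHG20, OIP5-AS1 and SNHG19 at the bottom are blue in all 3, and SNHG16 is blue in EV replicate 3 alone.

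Among the long RNAs that host no snoRNA here, MALAT1, NORAD and NEAT1 rose and OIP5-AS1 fell. MALAT1 (chromosome 11, 65497688 to 65506516, plus strand), an abundant unspliced RNA of nuclear speckles, stood at 39.3, 34.2 and 34.8 FPKM in LACTB, against 25.01, 24.6 and 27.7 FPKM in EV. The ratio of means was 1.40 and the log2 fold change 0.47 (SE 0.068; limma, adjusted p = 0.00269). Its neighbour NEAT1 (chromosome 11, 65422774 to 65445540, plus strand), the paraspeckle scaffold, stood at 11.7, 10.2 and 11.1 FPKM in LACTB, against 8.48, 8.55 and 9.10 FPKM in EV (ratio 1.27, log2 fold change 0.31, SE 0.058; limma, adjusted p = 0.00774). The gene model of NEAT1 is 1 exon of 22767 bases, so its short and long forms, which share the 5′ part, are counted together.

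NORAD (chromosome 20, 36045622 to 36050960, minus strand), a DNA damage-linked RNA that sequesters PUMILIO proteins, was the most abundant member per length in both groups. It stood at 85.0, 84.3 and 81.4 FPKM in LACTB, against 61.2, 66.0 and 67.4 FPKM in EV (ratio 1.29, log2 fold change 0.36, SE 0.048; limma, adjusted p = 0.00179). OIP5-AS1 (chromosome 15), the human counterpart of the zebrafish cyrano RNA, stood at 8.28, 8.17 and 7.77 FPKM in LACTB, against 9.43, 9.35 and 9.61 FPKM in EV (log2 fold change -0.21, SE 0.042; limma, adjusted p = 0.0107). The groups of both genes were apart. OIP5-AS1 was called under 15 of 17 alternatives, and being expressed as TPM was among the 2 that ended its call (adjusted p = 0.0754).

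TUG1 (chromosome 22), an RNA first described in retinal development in the mouse, stood at 20.7, 19.8 and 19.6 FPKM in LACTB, against 17.0, 19.4 and 18.8 FPKM in EV. The groups did not overlap, by a narrow gap, and the log2 fold change of 0.12 (SE 0.056) passed no threshold (limma, adjusted p = 0.156). TUG1 was called under 1 of 17 alternatives, with adjusted p from 0.0399 to 0.381.

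The 10 members under a mean of 1 FPKM were not tested. SNHG27, MEG3 and 1 of the SNHG28 IDs were at 0 in all libraries. For a gene of 2 kb in exons, 3 reads would have stood for 0.0827 to 0.0872 FPKM. KCNQ1OT1, the antisense RNA of an imprinted cluster, lay at 0.0633, 0.0742 and 0.074 FPKM in LACTB, against 0.0862, 0.08 and 0.0896 FPKM in EV, on 105 to 148 reads spread over 91667 bases. SNHG14, the host of the SNORD115 and SNORD116 clusters of the imprinted Prader-Willi region, lay at 0.762, 0.789 and 0.629 FPKM in LACTB, against 0.546, 0.505 and 0.563 FPKM in EV, on 397 to 598 reads. In KCNQ1OT1 the LACTB libraries were all below and in SNHG14 all above the EV libraries. SNHG9 had 2, 6 and 6 reads in LACTB, against 10, 9 and 5 in EV, and SNHG18 11 to 16 reads per library. The other SNHG28 ID had 7 to 10 reads per LACTB library and 10 to 14 per EV library, and SNHG22 and SNHG25 had 0 to 2 per library.

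Few snoRNA genes inside the hosts had reads of their own. In GENCODE 29, 26 of the 28 host gene IDs hold a snoRNA or scaRNA gene on their strand, 136 genes in all, of 59 to 275 bases, with 84 of them in SNHG14. All 44 that overlap an annotated host exon were at 0 in all libraries, and 28 of the 92 that lie in introns only had any read. How reads that overlap both a host exon and a snoRNA gene were counted is not given in the sources, and its part in the zeros was not tested. Summed over the 136 genes, there were 246, 199 and 193 reads in the LACTB libraries, against 137, 149 and 205 in the EV libraries. Only 3 had at least 10 reads in every library, and they were named after their values were seen. SNORA73B, an H/ACA RNA in an intron of SNHG3, had 108, 89 and 89 reads in LACTB, against 52, 57 and 72 in EV, and rose 1.59-fold in FPKM (log2 fold change 0.65, SE 0.12; limma, adjusted p = 0.00618), while its host passed no threshold. SNORA71B in SNHG17 had 19, 16 and 20 reads in LACTB, against 11, 12 and 14 in EV (log2 fold change 0.44; limma, adjusted p = 0.00762). SNORD12B in ZFAS1 had 21, 12 and 14 reads in LACTB, against 14, 14 and 26 in EV (limma, adjusted p = 0.693). The read counts of an intronic snoRNA gene can also hold unspliced host RNA.

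The level of a host in FPKM also depends on how much of the gene is drawn as exon. The merged exons of GAS5 cover 72.9% of the gene's span and those of SNHG1 95.6%, since transcripts with kept introns are annotated, against 12.8% for ZFAS1 and 15.8% for SNHG5. For GAS5 and SNHG1, spliced RNA and RNA with kept introns are therefore counted in the same value. The merged exons of MALAT1, NEAT1, NORAD, TUG1, KCNQ1OT1 and SNHG9 form 1 block each and cover 100% of the span. Such a block does not show that the transcripts are unspliced.

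Of 21 tested genes for snoRNP proteins and their assembly factors, 4 rose and 1 fell, or 19.0% and 4.76%, beside 14.8% and 17.2% of all tested genes (median log2 fold change 0.03). RRP9, which binds the U3 snoRNA, rose to 41.9 ± 2.17 FPKM in LACTB, against 30.8 ± 1.17 FPKM in EV (log2 fold change 0.43; limma, adjusted p = 0.00119), and DKC1, the pseudouridine synthase of H/ACA particles, to 50.4 ± 0.926 FPKM, against 44.8 ± 2.05 FPKM (limma, adjusted p = 0.0284). The assembly factor PIH1D1 fell to 13.6 ± 0.555 FPKM, against 15.3 ± 0.251 FPKM. With 1 library left out, 1 to 3 of the list rose (1 without EV replicate 1, LACTB replicate 1 or LACTB replicate 3; 2 without EV replicate 2 or LACTB replicate 2) and 0 fell except without LACTB replicate 3. As TPM or with no filter on low values, 1 rose and 0 fell.

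Of 48 protein-coding snoRNA hosts, 9 rose and 4 fell, or 18.8% and 8.33%, beside 14.8% and 17.2% of all tested genes (median log2 fold change 0.05). The lists share genes, so their counts are not separate. DKC1, for example, is also among these 9, and SRSF2 is counted among both the decay targets and the nuclear speckle factors below. HSPA9, the mitochondrial HSP70, rose to 99.1 ± 2.06 FPKM in LACTB, against 80.3 ± 4.72 FPKM in EV (limma, adjusted p = 0.00496), and the elongation factor EEF2 to 465 ± 17.1 FPKM, against 397 ± 19.4 FPKM (limma, adjusted p = 0.0197). RCC1, given above, and AP1G1, a clathrin adaptor subunit (12.6 ± 0.477 FPKM in LACTB and 14.9 ± 0.106 FPKM in EV), fell. The count that rose was unstable: 5, 2 and 7 without EV replicates 1, 2 and 3, and 3, 2 and 1 without LACTB replicates 1, 2 and 3. It was 16 with voom on recovered reads, 4 as TPM and 1 with no filter on low values.

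Factors of nonsense-mediated decay, the pathway known to remove many SNHG transcripts, had calls in both directions. Of 21 tested factors 5 rose and 3 fell, or 23.8% and 14.3%, beside 14.8% and 17.2% (median log2 fold change 0.00). The helicase DHX34 rose to 7.93 ± 0.76 FPKM in LACTB, against 5.58 ± 0.188 FPKM in EV (limma, adjusted p = 0.00395), and SMG8, a regulator of the kinase SMG1, to 12.8 ± 0.714 FPKM, against 9.97 ± 0.901 FPKM. PNRC2, which links decay to decapping, fell to 50.8 ± 2.09 FPKM, against 67.6 ± 2.95 FPKM (limma, adjusted p = 0.00129), and the endonuclease SMG6 to 2.63 ± 0.113 FPKM, against 3.34 ± 0.116 FPKM. With 1 library left out, 3 to 7 of these factors rose, with 3 without EV replicate 2, LACTB replicate 1 or LACTB replicate 2. Of 17 genes known as targets of this decay, 5 rose and 5 fell, 29.4% each way, beside 14.8% and 17.2% of all tested genes (median log2 fold change -0.02). CHAC1 and DDIT3, both also genes of the ATF4 stress response, rose to 10.8 ± 1.251 and 19.99 ± 0.648 FPKM in LACTB, against 2.502 ± 0.152 and 8.96 ± 0.791 FPKM in EV, whereas the splicing factor genes SRSF2 and HNRNPL fell to 67.3 ± 2.14 and 24.9 ± 0.459 FPKM, against 82.5 ± 0.622 and 29.5 ± 0.615 FPKM. Without LACTB replicate 2 or 3, 3 of these targets fell, and as TPM 2 did.

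NEAT1 and MALAT1 work with the proteins of paraspeckles and nuclear speckles. Of 29 tested paraspeckle proteins 8 fell (27.6%, against 17.2% of all tested genes) and 0 rose (limma; 1 at an unadjusted p under 0.05, and 1 each by voom on recovered reads, as TPM, with quantile normalization and scaled without mitochondrially encoded genes), with a median log2 fold change of -0.09. FIGN and RBM12, from surveys of paraspeckle proteins, fell to 1.62 ± 0.0803 and 20.4 ± 1.11 FPKM in LACTB, against 2.94 ± 0.134 and 26.7 ± 0.759 FPKM in EV. The core proteins SFPQ and PSPC1, named after their values were seen, fell to 67.6 ± 1.74 and 11.9 ± 0.685 FPKM, against 77.8 ± 2.51 and 15.6 ± 1.12 FPKM (limma, adjusted p = 0.0117 and 0.00627). Without LACTB replicates 1, 2 and 3, 5, 4 and 5 of the list fell, and as TPM or with no filter 5 did. Of 25 tested factors of nuclear speckles and MALAT1 processing 5 fell, 20% beside 17.2% of all tested genes, and 0 rose (limma; 1 at an unadjusted p under 0.05, 1 by voom and 1 without EV replicate 1), with a median of -0.12. The splicing kinase CLK1 fell most clearly, to 9.19 ± 0.638 FPKM in LACTB, against 14.98 ± 0.926 FPKM in EV (log2 fold change -0.65; limma, adjusted p = 0.000524), followed by SRSF2. Without LACTB replicate 1, 8 of that list fell, and without LACTB replicate 2 or 3, or as TPM, 3.

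Of 10 genes around NORAD, 3 fell, 30.0% beside 17.2% of all tested genes, and 0 rose (limma; 0 at an unadjusted p under 0.05 and 0 by voom), with a median log2 fold change of -0.03. FBXO34, an F-box protein gene, fell to 8.02 ± 0.456 FPKM in LACTB, against 10.2 ± 0.214 FPKM in EV (limma, adjusted p = 0.00401), and the RNA export factor ALYREF to 94.1 ± 2.87 FPKM, against 109 ± 4.03 FPKM (limma, adjusted p = 0.0117).

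**Figure D4:**
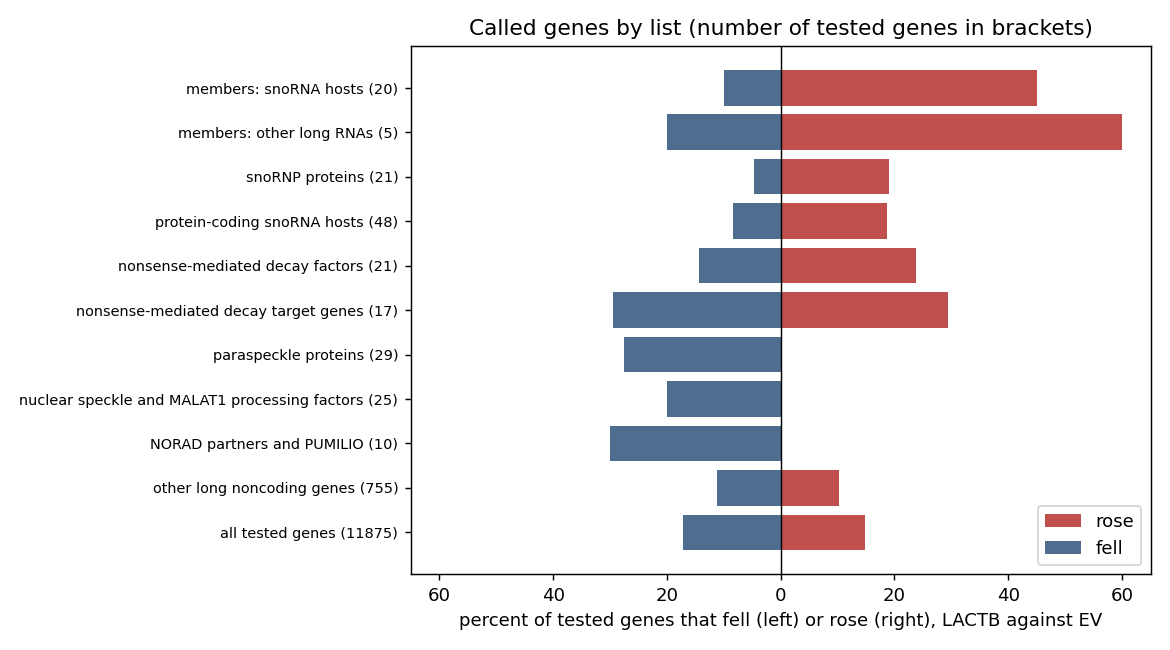
Percent of tested genes that rose (right, red) or fell (left, blue) in LACTB against EV, for the members, 7 lists of genes that work with them, the other long noncoding genes and all tested genes; the number of tested genes is in brackets. Risen genes make up 45.0% of the snoRNA hosts and 14.8% of all tested genes, and no paraspeckle, nuclear speckle or NORAD gene of these lists rose.

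**Figure D5:**
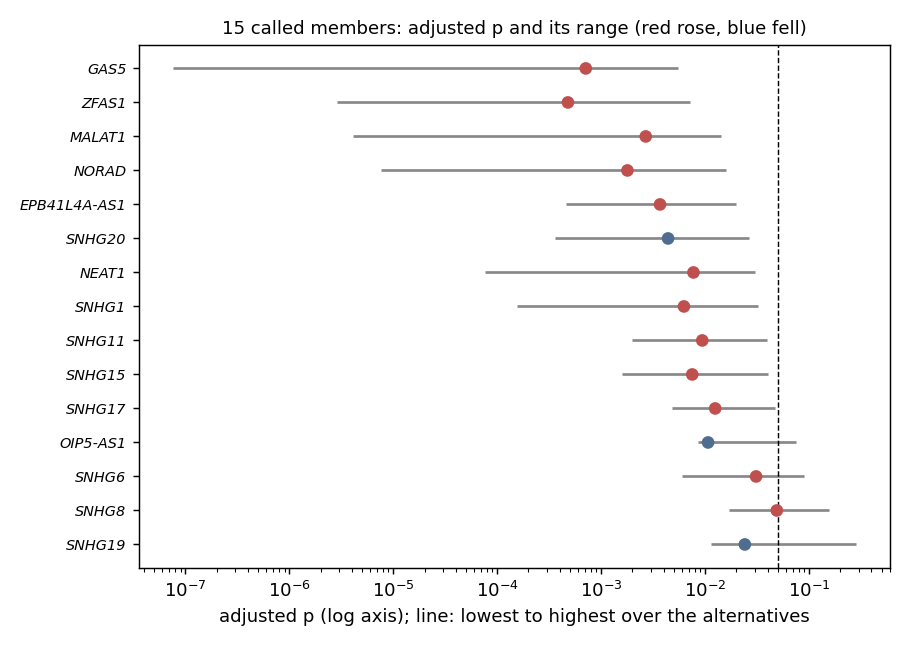
Adjusted p of the 15 called members (points, red for members that rose and blue for those that fell) on a log axis, with the lowest and highest value over the alternatives (lines) and a dashed line at 0.05. The ranges of OIP5-AS1, SNHG6, SNHG8 and SNHG19 cross 0.05, and those of the other 11 members lie under it.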

How the data were processed

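RNA of MUM2B cells was extracted with Trizol, made into libraries with the NEBNext Ultra RNA kit and sequenced as 150-base read pairs, per the labels' protocols. The authors deposited 1 table of FPKM per library. The submitters' processing notes name the build GRCh38 (hg38) and the tools featureCounts 1.5.0-p3, HISAT2 2.0.5 and DESeq2 1.16.1. Use of strand, annotation release and handling of reads with several hits were not given in the sources used here, so reads of overlapping or antisense genes cannot be told apart. Multiplied by the library size they imply and by GENCODE 29 exon length, 100% of the deposited FPKM values gave whole reads (tolerance 0.1 read). These whole reads give the read numbers and depths in the text.

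From the deposited FPKM values, log2(FPKM + 1) was computed for genes whose mean reached 1 FPKM and fitted with limma 3.58.1 (R 4.3.3, eBayes with a variance trend), LACTB minus EV, 3 libraries each. P-values were Benjamini-Hochberg adjusted over all 11875 tested genes, and a gene was called at an adjusted p under 0.05. An exact permutation test of 3 against 3 libraries cannot go below p = 0.1, so none was used. Tested on simulated data, the fit called 23 of 49 genes changed 1.25-fold, 36 of 50 changed 1.5-fold and 45 of 48 changed 2-fold, and 8 of 11592 unchanged ones. The simulation gave every gene the same dispersion between replicates, changed few genes and held no deviating library. These rates may therefore not carry over to the data. Members and lists were chosen with earlier results of these data known. Named in full were all called members and GAS5, ZFAS1, SNHG1, MALAT1, NEAT1, TUG1, NORAD and OIP5-AS1; from each list, up to 2 risen and 2 fallen genes with the smallest p were named; SFPQ and PSPC1 were added outside this rule. Alternatives were other pseudocounts, filters, scalings, variance models, voom on recovered reads, a replicate block, a stricter threshold and leaving out each library. The stricter threshold was applied to counts of genes only, not to the alternatives given for single members.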

Additional observations from a re-analysis of the deposited data

How the results depend on the processing

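Of the 15 called members, 11 kept an adjusted p under 0.05 in every alternative fit tried for them. SNHG6, SNHG8, SNHG19 and OIP5-AS1 lost it under some, and 0 of the 15 changed sign. The stricter threshold is not part of that count: SNHG17, 1 of the 11, did not pass 0.01 (limma, adjusted p = 0.0125). The number of members that rose was 9 to 13 (main value 12; 10 to 12 with 1 library left out; 9 at an adjusted p under 0.01; 13 with voom). Members that fell numbered 3, and 1 as TPM, 1 with the replicate block and 1 at an adjusted p under 0.01 (2 to 3 with 1 library left out). Of the snoRNA hosts 2 fell, and 1 each with quantile normalization, TPM, no filter, a filter at 5 FPKM, voom, the replicate block and an adjusted p under 0.01 (1 to 2 with 1 library left out); of the other long RNAs 1 fell, and 0 as TPM, with the block and at an adjusted p under 0.01. Same-numbered libraries deviated with correlations of -0.126, 0.019 and -0.044. Taken from means of 3 libraries per group, these show no pairing by number but cannot exclude it. With the replicate block 10 members rose and 1 fell (OIP5-AS1 had an adjusted p of 0.0549 in limma). Over all genes 1155 rose and 1324 fell with the block, against 1758 and 2038 in the main fit. In the lists the block left 2 protein-coding hosts and 1 snoRNP gene that rose, and 4 paraspeckle, 3 nuclear speckle, 3 decay target and 1 NORAD genes that fell. Over all genes 1115 rose and 1388 fell without LACTB replicate 2, 847 and 1004 passed an adjusted p of 0.01, and 1254 rose and 1403 fell of 30629 genes with no filter. With voom, which scaled by the total reads in genes, 2346 rose and 1952 fell. Signs turned only in members with no call. The log2 fold change of SNHG10 ran from -0.09047 (no LACTB replicate 1) to 0.03984 (no LACTB replicate 2) over the fits lacking 1 library, that of SNHG12 from -0.05626 (no EV replicate 2) to 0.05319 (no EV replicate 3), that of SNHG21 from -0.1174 (no LACTB replicate 3) to 0.113 (no LACTB replicate 1) and that of SNHG26 from -0.003091 (no LACTB replicate 2) to 0.06268 (no LACTB replicate 3). SNHG12 was at 0.01618 as TPM, 0.02088 scaled without mitochondrially encoded genes and 0.02729 with voom, and SNHG21 at -0.02906 with quantile normalization. The cause was not tested. Members with 0 to 16 reads per library, such as SNHG9 and SNHG18, leave small changes undetectable at this depth.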
